A study of Mus musculus with 11 samples.

Results

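The genes described here are the cell cycle and DNA replication genes of primary mouse bone marrow stromal cells, 45 genes chosen by name and matched on gene symbol. They comprise 22 genes of S phase (cyclin E, E2F factors, replication and nucleotide synthesis), 17 genes of mitosis and 6 cyclin and kinase genes of G1. All 45 were present in both deposited tables, which hold 19801 genes for the ANXA5 knockout and 19259 for the ANXA2 knockout, and all 45 passed the filter on low values in both. RNA-seq libraries came from mesenchymal stromal cells of C57/BL6 mice in 3 genotypes, 4 from ANXA5 knockout, 3 from ANXA2 knockout and 4 from wild type (WT) mice, none of them treated. The labels give no age, deleted exon or count of animals behind a library, so p-values measure the spread between these libraries, which may be technical in part. Each knockout was compared with the same 4 WT libraries in a table of its own. Annexins are proteins that bind membrane phospholipids in the presence of calcium, and the comparison asks whether loss of either one changes the transcripts of proliferation.

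A cell entering the cycle builds up D-type cyclins, which with CDK4 and CDK6 phosphorylate the retinoblastoma protein and free E2F factors to switch on the genes of S phase. Origins are licensed when ORC, CDC6 and CDT1 load the MCM helicase, and they fire when CDC45 and GINS join it. The genes of mitosis are expressed later, in G2 and M, when the DREAM complex has been replaced by B-MYB and FOXM1 at promoters that carry a CHR element and CCAAT boxes. Bone marrow cultures can hold dividing blood cell progenitors beside the stromal cells, and the summed level of these transcripts is a common measure of proliferation. The division rate of either cell type was not measured here.

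The 2 phases are known to differ in promoter sequence, and 4 promoters are shown as examples of the motifs counted in the members of each phase. Promoters of 36 of the 45 members were matched in the RefSeq promoter table of build GRCm38.p6, which is an earlier build than the GRCm39 named in the submitters' processing notes. Not matched were Ccnd1, Ccnd2, Ccne2, Mcm4, Gins2, Pole, Aurkb, Kif20a and Tpx2. Each sequence holds the 160 bases before the annotated start, 5′ to 3′ on the gene's strand. Capitals mark matches on either strand to an E2F motif (TTTCCCGC, TTTGGCGC, TTTCGCGC or TTTGCCGC), the CHR element (TTTGAA or TTCGAA) and the CCAAT box (CCAAT). Mcm5, an MCM helicase subunit, lies at chr8:75109349-75109508 on the plus strand. Cdc6, the licensing factor, lies at chr11:98907991-98908150 on the plus strand. Cdk1, the mitotic kinase, lies at chr10:69352913-69353072 on the minus strand. Cdc20, an activator of the anaphase-promoting complex, lies at chr4:118437344-118437503 on the minus strand.
Mcm5: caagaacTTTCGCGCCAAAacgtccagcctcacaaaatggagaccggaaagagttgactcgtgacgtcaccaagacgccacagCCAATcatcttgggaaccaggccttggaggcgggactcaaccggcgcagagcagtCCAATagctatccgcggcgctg
Cdc6: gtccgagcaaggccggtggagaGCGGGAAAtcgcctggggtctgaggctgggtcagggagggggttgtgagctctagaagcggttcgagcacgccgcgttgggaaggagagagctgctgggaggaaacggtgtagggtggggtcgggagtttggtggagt
Cdk1: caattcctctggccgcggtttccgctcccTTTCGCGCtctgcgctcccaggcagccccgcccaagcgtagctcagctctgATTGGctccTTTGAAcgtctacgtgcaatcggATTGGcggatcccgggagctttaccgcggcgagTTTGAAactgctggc
Cdc20: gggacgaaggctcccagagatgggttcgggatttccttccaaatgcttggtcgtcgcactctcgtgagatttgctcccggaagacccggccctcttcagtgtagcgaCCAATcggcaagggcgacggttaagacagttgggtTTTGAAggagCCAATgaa

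In these stretches the S phase promoters of Mcm5 and Cdc6 hold an E2F motif and no CHR letters, Cdc20 holds a CHR element with CCAAT boxes and no E2F motif, and Cdk1 holds all 3. Over windows of 300 bases, from 250 before to 50 after the start, an E2F motif was found in 8 of the 18 matched S phase members (44.4%) and in 1 of the 14 matched mitotic members (7.14%), which was Cdk1. The share was 2.60% over all 27025 genes with a promoter, and 4.23% over the 12710 of them that are in both deposited tables. The S phase promoters with a match were those of E2f2, Mcm3, Mcm5, Mcm6, Mcm7, Cdc6, Cdt1 and Pola1. A CHR element was found in 11 of 14 mitotic promoters (78.6%) and in 5 of 18 S phase promoters (27.8%). It was found for 21.7% of all genes with a promoter and 17.1% of those in both deposited tables. The 11 were Cdk1, Aurka, Plk1, Bub1, Bub1b, Kif11, Cenpf, Cdc20, Ube2c, Mki67 and Top2a. A CCAAT box stood in 13 of 14 mitotic and 12 of 18 S phase promoters (92.9% and 66.7%), against 41.1% of all and 42.2% of those in both deposited tables. No motif contains another, overlapping matches are all marked (the run in Mcm5 holds TTTCGCGC and the reverse complement of TTTGGCGC), TTCGAA reads the same on both strands, a match describes the sequence only, and no binding was measured. Bases after the start decide part of these counts: in the 250 bases before it, 5 S phase promoters held an E2F motif and 7 mitotic promoters a CHR element. The CHR share there was 50% for the mitotic and still 27.8% for the S phase promoters, so the phases differed less. In that window 2.16% of all genes with a promoter held an E2F motif and 19.6% a CHR element.

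Over the genes of the tables, libraries held 23.3 to 35.7 M reads, and values are reads divided by the library's size factor, called normalised reads here. The targeted genes followed the labels. Anxa5 stood at 2383, 2295, 2426 and 2331 in ANXA5 knockout libraries 1 to 4, against 27595, 25599, 23423 and 25498 in WT. Anxa2 stood at 10427, 8041 and 7159 in ANXA2 knockout libraries 1, 3 and 4 (numbered as their columns are), against 31163, 30240.3, 27947 and 29937 in WT. Xist, the RNA that coats the inactive X of females, differed within groups: it was 783, 2.07, 1676 and 528 in the ANXA5 knockout, against 2000.0, 2186, 1.29 and 1.05 in WT. In the ANXA2 table it was 652, 226 and 203 in the knockout, against 1829, 1997, 1.16 and 0.959 in WT. The stromal markers were abundant in every library, and so were those of neutrophils and myeloid progenitors. The lowest endothelial sum was 644 normalised reads, in WT library 1 of the ANXA2 table. Of the 6 neutrophil and myeloid progenitor markers, the 8 of macrophages, the 5 of red cells, the 5 of B and plasma cells and the 5 of endothelium, 0 were at 0 in any library. That count says little, since a library held at most 412 genes of any kind at 0. In bulk RNA, fewer dividing cells and less of the transcript in each of them cannot be told apart.

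In the ANXA5 knockout, 0 of the 45 genes passed the adjusted threshold of 0.05 in limma, where 0.0308% of the 16224 genes tested did. Their values nevertheless lay to one side: 44 of 45 log2 fold changes were above 0, with Ccnd1 as the exception, against 8442 of the 16224 genes tested, and the median was 0.30, against 0.01 over all genes tested. The median was 0.32 for the S phase genes (22 of 22 above 0), 0.31 for the mitotic genes (17 of 17) and 0.11 for the G1 genes (5 of 6). At an unadjusted p under 0.05, 21 members were higher (11 of S phase, 9 of mitosis and Ccnd3) where 6.48% of all genes tested were, and 0 were lower, where 5.45% were. The knockout libraries lay above every WT library for 2 members, Ccne2 and Tpx2, where 3.01% of all genes tested had such a separation, and 0 members lay below, where 3.36% did. These genes vary together from library to library, so the counts are not sums of independent results. The count of 21 was 12 without knockout library 2 or 3, 11 without knockout library 4, 10 without WT library 1 and 11 without WT library 3, and the S phase median was 0.20 without WT library 1.

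**Figure D1:**
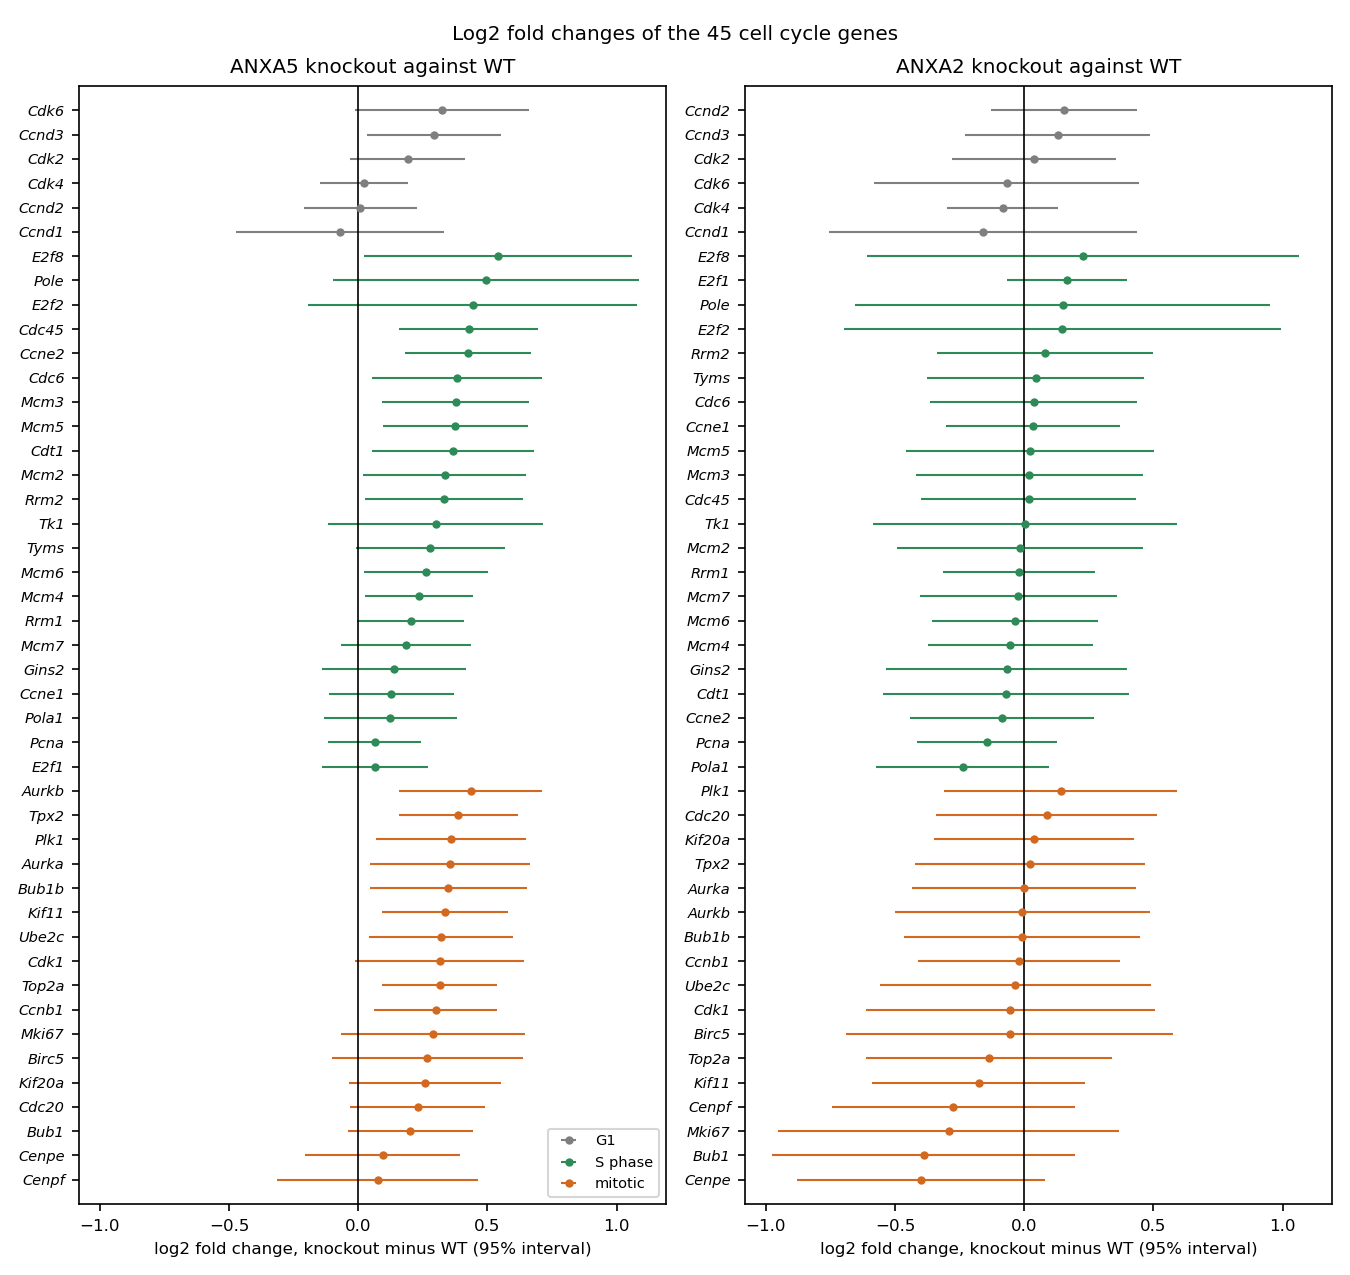
Log2 fold changes (knockout minus WT, points) with 95% intervals (lines) of the 45 genes in the ANXA5 knockout (left) and the ANXA2 knockout (right), grouped from the top as G1, S phase and mitotic genes and ordered by size within each group. In the ANXA5 knockout 44 points lie right of 0 and in the ANXA2 knockout 19 do, and 0 genes passed the adjusted threshold in either.

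Among the genes that start S phase, Ccne2 had the smallest p of all 45. It encodes cyclin E2, which activates CDK2 at the G1 to S transition. Ccne2 stood at 616, 771, 693 and 854 normalised reads in ANXA5 knockout libraries 1 to 4, against 514, 537, 557 and 564 in WT libraries 1 to 4 (log2 fold change 0.42, SE 0.11, adjusted p = 0.232). The 4 knockout values lie above the 4 WT values, which are close together (coefficient of variation 4.09%), and the 95% interval of the log2 fold change is 0.18 to 0.67. DESeq2 on the recovered reads called Ccne2 with an adjusted p of 0.0379, and it was the 1 member that this tool called, where it called 1.69% of all genes tested. edgeR and limma-voom called 0 members, where each called 0.0308% of all genes tested, and over all 20 alternatives the adjusted p of Ccne2 ran from 0.0379 to 1. In the authors' deposited table Ccne2 has a log2 fold change of 0.43 and an adjusted p of 0.0406, and it is the 1 member with an adjusted p under 0.05 there, where 1.76% of the genes with an adjusted p pass. The related Ccne1 had a log2 fold change of 0.13 with an adjusted p of 0.642 in limma.

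The E2F factors, which transcribe the S phase genes or repress them, did not follow one size. E2f1, an activator, was 1041, 1007, 1158 and 1177 normalised reads in ANXA5 knockout libraries 1 to 4, against 971, 978, 1132 and 1113 in WT libraries 1 to 4 (log2 fold change 0.06, SE 0.09, adjusted p = 0.789), and the groups overlap. E2f8, a repressor that is itself an E2F target, was 926, 988, 1012 and 1191 in the ANXA5 knockout, against 406, 730.4, 881 and 944 in WT. E2f2, another activator, was 2342, 2456, 2296 and 3064 in the ANXA5 knockout, against 925, 1974, 2463 and 2638 in WT. WT library 1 was far below the other WT libraries for both, so the log2 fold changes of 0.54 for E2f8 and 0.44 for E2f2 have wide intervals, 0.02 to 1.06 and -0.20 to 1.08. Pole, the catalytic subunit of the leading strand polymerase, showed the same low WT library, with 499, 565, 576 and 662 in the ANXA5 knockout, against 226, 372, 544 and 594 in WT (log2 fold change 0.50, SE 0.27, adjusted p = 0.480). These 3 genes had the largest spread among WT libraries of the 45, up to a coefficient of variation of 38.8% for Pole.

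Of the 10 genes of origin licensing and firing, 10 had log2 fold changes above 0 in the ANXA5 knockout, with a median of 0.35. At an unadjusted p under 0.05, 8 were higher, where 6.48% of all genes tested were, and 0 passed the adjusted threshold. Cdc45, which joins the MCM helicase when an origin fires, stood at 758, 926, 865 and 922 normalised reads in ANXA5 knockout libraries 1 to 4, against 556, 679, 588 and 772 in WT libraries 1 to 4 (log2 fold change 0.43, SE 0.12, adjusted p = 0.277). Knockout libraries 2, 3 and 4 lay above every WT library, and knockout library 1 lay within the WT range. Mcm5 stood at 3452, 4027, 4045 and 4593 in the ANXA5 knockout, against 2538, 3140.3, 3079 and 3709 in WT (log2 fold change 0.38, SE 0.13, adjusted p = 0.326). Mcm3, another subunit of the helicase, stood at 3244, 3971, 3881 and 4595 in the ANXA5 knockout, against 2526, 3059, 2985 and 3507 in WT (log2 fold change 0.38, SE 0.13, adjusted p = 0.326). In both, as for Cdc45, knockout library 1 lay within the WT range and the other 3 above it. Mcm2 was 3308, 3906, 4319 and 4410.4 in the ANXA5 knockout, against 2437, 3386, 3148 and 3747 in WT (log2 fold change 0.33, SE 0.14, adjusted p = 0.400). Mcm4, Mcm6 and Mcm7 had log2 fold changes of 0.24, 0.26 and 0.18. Cdc6 was 929.8, 1249.7, 1179 and 1417 in the ANXA5 knockout, against 736, 1028, 879.7 and 1011 in WT (log2 fold change 0.38, SE 0.15). Cdt1 was 1249.8, 1242, 1093 and 1460.0 in the ANXA5 knockout, against 761, 1052, 945 and 1181 in WT (log2 fold change 0.37, SE 0.14), and here knockout library 3 was the one within the WT range. Gins2, a subunit of the GINS complex, had a log2 fold change of 0.14 (adjusted p = 0.662).

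Pcna, the sliding clamp of the polymerases, had a small difference: it stood at 2347, 2638, 2562 and 2791 normalised reads in ANXA5 knockout libraries 1 to 4, against 2454, 2654, 2343 and 2428 in WT libraries 1 to 4 (log2 fold change 0.06, SE 0.08, adjusted p = 0.759), with an interval of -0.12 to 0.24. Pola1, the catalytic subunit of DNA polymerase alpha, had a log2 fold change of 0.12. The 4 genes of nucleotide synthesis had log2 fold changes of 0.20 for Rrm1 and 0.33 for Rrm2, the ribonucleotide reductase subunits, 0.28 for Tyms, thymidylate synthase, and 0.30 for Tk1, thymidine kinase. Among them Rrm2 had an unadjusted p under 0.05 and an adjusted p of 0.388.

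The mitotic genes of the ANXA5 knockout lay above WT by about the same amount. Tpx2, which activates Aurora A on the spindle, stood at 1197, 1285, 1371 and 1475 normalised reads in ANXA5 knockout libraries 1 to 4, against 886, 1082, 976 and 1133 in WT libraries 1 to 4 (log2 fold change 0.39, SE 0.10, adjusted p = 0.255), and the groups do not overlap. Aurkb, the kinase of the chromosomal passenger complex, was 1151, 1460.3, 1492 and 1462 in the ANXA5 knockout, against 876, 1054, 966 and 1228 in WT (log2 fold change 0.44, SE 0.12, adjusted p = 0.278). Its knockout library 1 stood apart below the other 3 knockout libraries and within the WT range. Top2a, the topoisomerase that untangles sister chromatids, was 3164, 3551, 3739 and 3841 in the ANXA5 knockout, against 2501, 3206, 2791 and 3015 in WT (log2 fold change 0.31, SE 0.10, adjusted p = 0.311). Kif11, the motor that separates the spindle poles, was 1575, 2088, 1896 and 2174 in the ANXA5 knockout, against 1382, 1598, 1537 and 1571 in WT (log2 fold change 0.34, SE 0.11, adjusted p = 0.318). Knockout library 1 was within the WT range for both, and the other 3 knockout libraries were above it. Ccnb1, the cyclin that activates CDK1, was 1282, 1494, 1646 and 1479.7 in the ANXA5 knockout, against 1119, 1235, 1070.1 and 1374 in WT (log2 fold change 0.30, SE 0.11). Cdk1 was 998, 1156, 1245 and 979 in the ANXA5 knockout, against 779.8, 947, 711 and 1119 in WT (log2 fold change 0.31, SE 0.15). Plk1, the polo-like kinase of mitotic entry, was 1005, 1089, 1173 and 1010.5 in the ANXA5 knockout, against 730.0, 840.2, 725 and 1078 in WT (log2 fold change 0.36, SE 0.13).

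Mki67, which encodes the proliferation marker Ki-67, did not separate the groups. It stood at 3319, 3447, 4243 and 4054 normalised reads in ANXA5 knockout libraries 1 to 4, against 2213, 3639, 3021 and 3626 in WT libraries 1 to 4 (log2 fold change 0.29, SE 0.16, adjusted p = 0.495), and WT libraries 2 and 4 exceeded knockout libraries 1 and 2. Aurka, Bub1b and Ube2c had log2 fold changes of 0.35, 0.35 and 0.32 with unadjusted p under 0.05, and encode Aurora A, a checkpoint kinase and the ubiquitin-conjugating enzyme of the anaphase-promoting complex. Bub1, Birc5, Kif20a and Cdc20 lay between 0.20 and 0.27. The smallest differences were those of the kinetochore genes Cenpe and Cenpf, at 0.09 and 0.08 (adjusted p = 0.786 and 0.876).

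**Figure D2:**
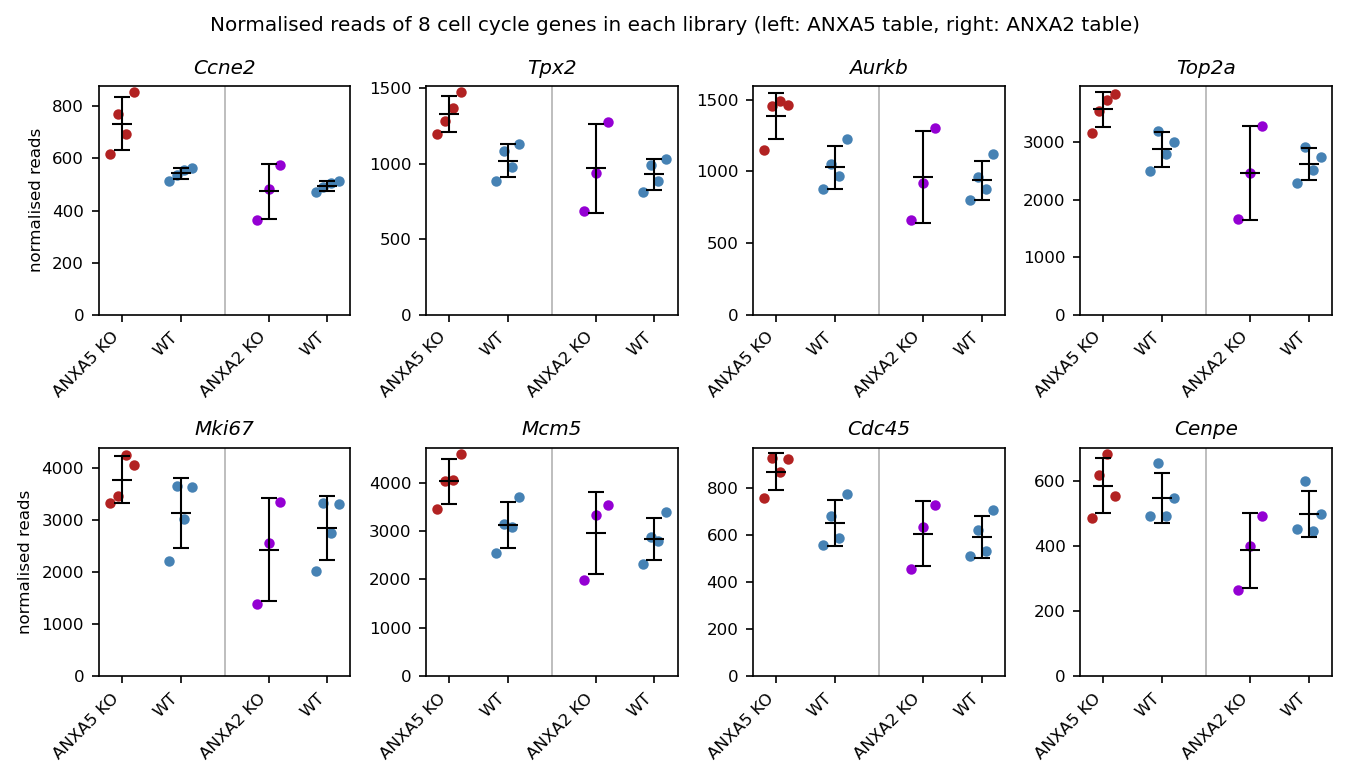
Normalised reads of 8 members in each library (points), with the mean and SD of each group (bars, 4 ANXA5 knockout, 3 ANXA2 knockout and 4 WT libraries); in each panel the ANXA5 table is on the left and the separately scaled ANXA2 table on the right. For Ccne2 and Tpx2 the ANXA5 knockout points lie above all WT points, and the ANXA2 knockout points spread over and around the WT range.

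The G1 genes showed less. Ccnd3, a D-type cyclin prominent in blood cells, was 9683, 10155, 9257 and 10281 normalised reads in ANXA5 knockout libraries 1 to 4, against 6785, 7801, 7896 and 9927 in WT libraries 1 to 4 (log2 fold change 0.29, SE 0.12, adjusted p = 0.374), with WT library 4 above 2 of the knockout libraries. Cdk6 was 1140.1, 1186, 1295 and 1365 in the ANXA5 knockout, against 767, 1073, 905 and 1305 in WT (log2 fold change 0.32, SE 0.15). Cdk2 was 1969, 2222, 1853 and 2242 in the ANXA5 knockout, against 1701, 1699, 1771 and 2091 in WT (log2 fold change 0.19, SE 0.10). Cdk4 was 3304, 3612, 3609.7 and 3465 in the ANXA5 knockout, against 3678, 3382, 3188 and 3534 in WT (log2 fold change 0.02, SE 0.08). Cdk4 and the other 2 D-type cyclins lay within their WT ranges in all 4 knockout libraries. Ccnd1 was 785, 559, 757 and 586 in the ANXA5 knockout, against 891, 804, 634 and 523 in WT (log2 fold change -0.07, SE 0.18). Ccnd2 was 4239.6, 3878, 4402 and 3709 in the ANXA5 knockout, against 4607, 4139, 3833 and 3586 in WT (log2 fold change 0.01, SE 0.10).

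In the ANXA2 knockout, 0 of the 45 genes passed the threshold, where 0.112% of the 16123 genes tested did, and the log2 fold changes lay on both sides of 0. They were above 0 for 19 members and below for 26, with a median of -0.02, against 0.02 over all genes tested. The medians were 0.01 for the S phase genes, -0.03 for the mitotic genes, of which 13 of 17 were below 0, and -0.01 for the G1 genes. At an unadjusted p under 0.05, 0 members were higher, where 4.65% of all genes tested were, and 0 were lower, where 4.04% were. Of the members, 0 had groups that do not overlap, where 4.56% of all genes tested lay above WT and 4.63% below. DESeq2, edgeR and limma-voom also called 0 members, where they called 0.664%, 0.13% and 0.112% of all genes tested. By the authors' deposited table too, 0 members have an adjusted p under 0.05, where 0.593% of the genes with one do. The number above 0 was 38 without knockout library 1, 3 without knockout library 4, 6 without WT library 1 and 32 without WT library 4.

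The 3 ANXA2 knockout libraries differed widely among themselves. Relative to the WT mean, the median deviation of the 17 mitotic genes was -0.55, -0.03 and 0.33 on the log2 scale in knockout libraries 1, 3 and 4, against -0.19, 0.10, -0.15 and 0.26 in WT libraries 1 to 4. For the S phase genes it was -0.41, 0.11 and 0.28 in the knockout, against -0.24, 0.08, -0.03 and 0.18 in WT. In knockout library 1 all 17 mitotic genes and 21 of 22 S phase genes were below the WT mean, and in knockout library 4 16 of the mitotic and 22 of the S phase genes were above it. The coefficient of variation of a mitotic gene in the ANXA2 knockout ran from 15.9 to 43.7%, against 6.25 to 21.6% in WT. In the ANXA5 knockout the same medians were 0.14, 0.32, 0.43 and 0.31 for the mitotic genes and 0.06, 0.37, 0.35 and 0.46 for the S phase genes, so that library 1 was the lowest of the 4 for both.

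**Figure D3:**
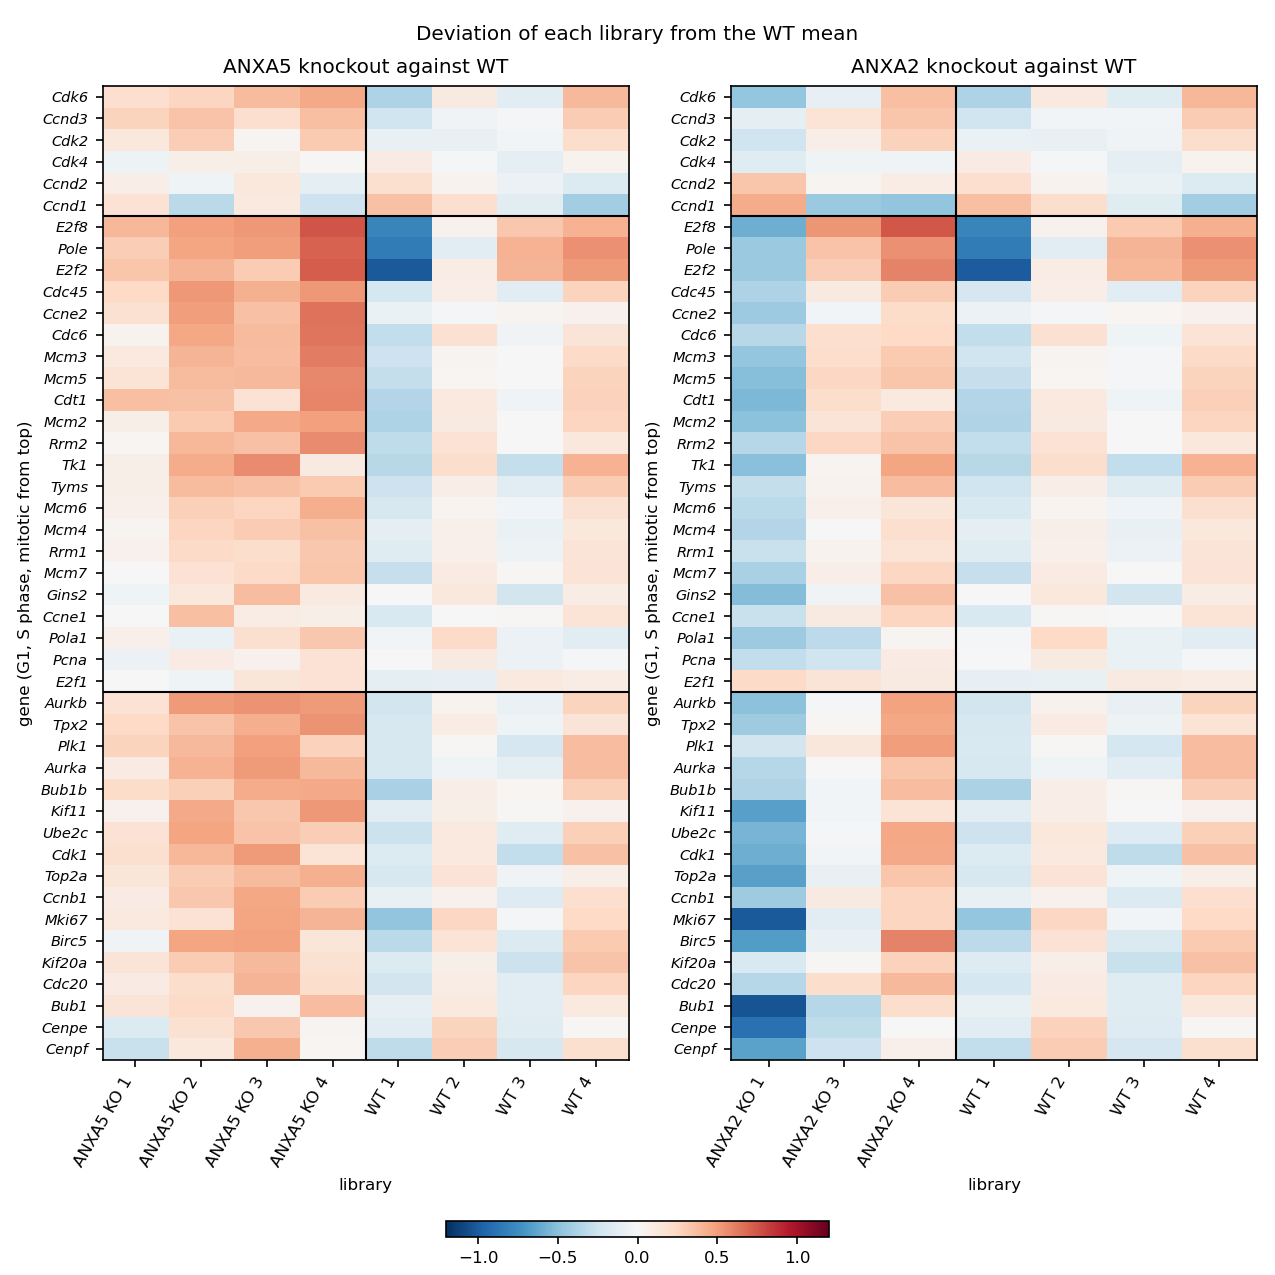
Deviation of each library from the WT mean, log2 (normalised reads + 1), for the 45 genes (rows, grouped as G1, S phase and mitotic and ordered by their ANXA5 fold change in both panels), with knockout libraries left and WT libraries right of the vertical line. ANXA2 knockout library 1 is blue in nearly every S phase and mitotic row and library 4 red, and WT library 1 is lowest for E2f2, E2f8 and Pole.

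The gene with the smallest p in the ANXA2 knockout was Cenpe, which encodes the kinetochore motor CENP-E. Cenpe stood at 265, 401 and 493 normalised reads in ANXA2 knockout libraries 1, 3 and 4, against 450.3, 599, 445 and 499 in WT libraries 1 to 4 (log2 fold change -0.40, SE 0.21, adjusted p = 0.600), with an interval of -0.88 to 0.08. Knockout libraries 1 and 3 lay below every WT library, and library 4 lay among them. Bub1, a spindle checkpoint kinase, was 181, 295 and 433 in the ANXA2 knockout, against 351, 405, 337 and 407 in WT (log2 fold change -0.39, SE 0.26, adjusted p = 0.650), with the same libraries low and library 4 above WT. Cenpf was 343, 451 and 559 in the ANXA2 knockout, against 435, 661, 466 and 613 in WT (log2 fold change -0.28, SE 0.21). Kif11 was 878, 1351 and 1548 in the ANXA2 knockout, against 1264, 1459.8, 1392 and 1432 in WT (log2 fold change -0.18, SE 0.18), and here library 1 was the one below WT. Mki67 was 1392, 2548 and 3342 in the ANXA2 knockout, against 2024, 3325, 2735 and 3307 in WT (log2 fold change -0.29, SE 0.29, adjusted p = 0.762), which leaves an interval from -0.95 to 0.37. Top2a was 1659, 2461 and 3286 in the ANXA2 knockout, against 2286, 2929, 2527 and 2749.6 in WT (log2 fold change -0.14, SE 0.21). The values of Top2a put library 1 below and library 4 above all WT libraries, as did those of Cdk1, Ccnb1 and Plk1. Cdk1 was 532, 778 and 1096 in the ANXA2 knockout, against 713, 865, 644 and 1021 in WT (log2 fold change -0.05, SE 0.25). Ccnb1 was 809, 1171 and 1301 in the ANXA2 knockout, against 1023, 1128, 969 and 1253 in WT (log2 fold change -0.02, SE 0.17). Plk1 was 651, 833 and 1077 in the ANXA2 knockout, against 667, 768, 657 and 983 in WT (log2 fold change 0.14, SE 0.20). The largest positive log2 fold change of a mitotic gene was that of Plk1.

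The S phase genes of the ANXA2 knockout were similarly placed. Pola1 stood at 463, 506 and 644 normalised reads in ANXA2 knockout libraries 1, 3 and 4, against 617, 739, 593 and 577 in WT libraries 1 to 4 (log2 fold change -0.24, SE 0.15, adjusted p = 0.624), with libraries 1 and 3 below WT. Pcna was 1829, 1910.4 and 2409.5 in the ANXA2 knockout, against 2244, 2425, 2122 and 2214 in WT (log2 fold change -0.14, SE 0.12, adjusted p = 0.712), again with libraries 1 and 3 below WT. E2f1 was 1118, 1064 and 1025 in the ANXA2 knockout, against 888, 894, 1025 and 1015 in WT (log2 fold change 0.16, SE 0.10, adjusted p = 0.625), with the highest value in library 1, where most other members were low. E2f8 had the largest positive log2 fold change of the 45 and stood at 427, 926 and 1076 in the ANXA2 knockout, against 371, 667, 798 and 861 in WT (log2 fold change 0.23, SE 0.37). Ccne2 was 364, 483 and 576 in the ANXA2 knockout, against 470.4, 491, 504 and 514 in WT (log2 fold change -0.09, SE 0.16), around WT values that are close together. Rrm2 was 2729.9, 4097 and 4371 in the ANXA2 knockout, against 2815, 3899, 3448 and 3782 in WT (log2 fold change 0.08, SE 0.18). Mcm2 was 2034, 3178 and 3517 in the ANXA2 knockout, against 2228, 3094, 2851 and 3417 in WT (log2 fold change -0.02, SE 0.21). The 10 genes of licensing and firing had log2 fold changes between -0.07 and 0.04.

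Among the G1 genes of the ANXA2 knockout, Ccnd1, the D-type cyclin of mesenchymal cells, stood at 868, 466 and 458 normalised reads in ANXA2 knockout libraries 1, 3 and 4, against 815, 734, 574 and 477 in WT libraries 1 to 4 (log2 fold change -0.16, SE 0.26, adjusted p = 0.872). Its order was turned round, with library 1 above and libraries 3 and 4 below every WT library. Ccnd2 was 4629, 3754 and 3901 in the ANXA2 knockout, against 4213, 3782, 3470.2 and 3271 in WT (log2 fold change 0.15, SE 0.12), also highest in library 1. Ccnd3 was 6774, 8181 and 9231 in the ANXA2 knockout, against 6204, 7127, 7149 and 9053 in WT (log2 fold change 0.13, SE 0.16). Cdk6 was 656, 844 and 1160.4 in the ANXA2 knockout, against 701, 981, 819.8 and 1189.7 in WT (log2 fold change -0.07, SE 0.23). Both were lowest in library 1, as most S phase and mitotic genes were. Cdk4 was 2834, 3016 and 3032 in the ANXA2 knockout, against 3363, 3089.5, 2887 and 3223 in WT (log2 fold change -0.08, SE 0.10). Cdk2 was 1400.0, 1739 and 1995 in the ANXA2 knockout, against 1555, 1552, 1604 and 1907 in WT (log2 fold change 0.04, SE 0.14).

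Both knockouts share their WT libraries, so their difference was tested in a joint edgeR quasi-likelihood fit of all 11 libraries. Of the 45 members, 0 differed between the ANXA2 and the ANXA5 knockout at an adjusted p under 0.05, where 0.262% of the 16768 genes tested did. The log2 difference, ANXA2 minus ANXA5, was below 0 for 43 members, with a median of -0.31, against -0.01 over all genes tested, and the exceptions were Ccnd2 and E2f1. At an unadjusted p under 0.05, 10 members were lower in the ANXA2 knockout (6 of S phase and 4 of mitosis), where 6.75% of all genes tested were, and 0 were higher, where 7.16% were. The smallest p was that of Ccne2 (log2 difference -0.51, SE 0.15, adjusted p = 0.196), followed by Kif11 (-0.50, SE 0.17, adjusted p = 0.244). The values of Mki67 were -0.51, SE 0.25, adjusted p = 0.385. The 10 became 1 without ANXA2 knockout library 1 and 32 without ANXA2 knockout library 4, and the median became -0.13 and -0.49. They became 4 without ANXA2 knockout library 3, 3 without ANXA5 knockout library 2, 4 without ANXA5 knockout library 3, 3 without ANXA5 knockout library 4 and 6 without WT library 2.

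Other genes of the pathway were counted in the same way. Of 57 further mitotic genes, 55 had a log2 fold change above 0 in the ANXA5 knockout, with a median of 0.26, 19 were higher and 0 lower at an unadjusted p under 0.05, and 0 passed the adjusted threshold. Over all genes tested, 52.0% were above 0, 6.48% were higher and 5.45% lower at an unadjusted p under 0.05, and 0.0308% passed. Ckap2l, Prc1 and Kif2c, which act on the mitotic spindle, had the smallest p, with log2 fold changes of 0.45, 0.34 and 0.38 (adjusted p = 0.266, 0.305 and 0.307). Of 38 further replication genes, 35 were above 0, with a median of 0.17, 6 were higher and 0 lower at an unadjusted p under 0.05, and 0 passed. Among those with the smallest p were Mcm10, which helps the helicase to fire, with a log2 fold change of 0.54, and Gmnn, the inhibitor of Cdt1, with 0.35. Of 14 E2F, DREAM, MYB and MYC factors, 11 were above 0 and 0 passed, with E2f7 at 0.46, E2f3 at 0.45 and E2f4 at 0.26. Of the 9 CDK inhibitors and pocket proteins tested, of 10 named, 6 were above 0 and 0 passed, with Rbl1 at 0.23, Cdkn2d at 0.19 and Cdkn1b at 0.29.

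In the ANXA2 knockout, 20 of the 57 further mitotic genes and 9 of the 38 further replication genes were above 0, with medians of -0.04 and -0.06, where 54.1% of all genes tested were above 0, and 0 of either passed, where 0.112% of all did. The mitotic genes with the smallest p were Depdc1a at -0.52, Ncapg, a condensin subunit, at -0.44 and Kif14 at -0.62. Among the replication genes they were Dbf4, the activator of CDC7, at -0.40, Pole2 at -0.28 and Prim2 at -0.24. Among the inhibitors of CDKs, Cdkn1a, which encodes p21, was 16780.4, 11491 and 11735 normalised reads in ANXA2 knockout libraries 1, 3 and 4, against 8938, 8101, 10786 and 9132 in WT libraries 1 to 4 (log2 fold change 0.51, SE 0.17, adjusted p = 0.523). Cdkn1b, which encodes p27, averaged 249 ± 27.7 in the ANXA2 knockout (SD, 3 libraries) and 372 ± 94 in WT (SD, 4 libraries), with log2 fold change -0.55, SE 0.20, adjusted p = 0.555. In neither do the groups overlap, where 4.56% of all genes tested lay above every WT library and 4.63% below. Neither gene passed the adjusted threshold, although Cdkn1b had an adjusted p of 0.0474 in limma with Xist as a covariate (0.0474 to 0.949 over its alternatives). Cdkn2b had a log2 fold change of 0.35. Of the 14 factors, 8 were above 0 and 0 passed, with Myc at 0.65, E2f3 at 0.35 and Foxm1 at 0.35. In the joint fit Cdkn1b had a log2 difference, ANXA2 minus ANXA5, of -0.85, SE 0.19, adjusted p = 0.107. Others of its list went the other way, with Cdkn1a at 0.47 and Cdkn2b at 0.58. Of the 9 genes of that list, 5 were above 0, where 48.7% of all genes tested were, and 0 passed, where 0.262% did.

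Levels of blood cell markers were compared with the level of these genes library by library. The summed level of the 6 neutrophil and myeloid progenitor markers ran from 351034 to 472572 normalised reads in the ANXA5 knockout, against 240126 to 436167 in WT. All 6 had log2 fold changes above 0 (2 at an unadjusted p under 0.05, 0 passing), with Elane at 0.86 and Mpo at 0.74. In the ANXA2 table it ran from 194814 to 507215 in the knockout, against 219561 to 397764 in WT, lowest in ANXA2 knockout library 1 and highest in library 4, the libraries with the lowest and the highest mitotic genes. Among the WT libraries it was highest in library 4 and lowest in library 1, which also had the highest and the lowest mitotic genes. This was not particular to these markers. The macrophage, endothelial, red cell, and B and plasma cell sums were also lowest in ANXA2 knockout library 1 and highest in library 4. In WT the macrophage and endothelial sums were also lowest in library 1 and highest in library 4, while the red cell sum was highest in library 2. The stromal sum was highest in library 3 in both groups. Within the ANXA5 knockout the order was not shared: library 3 had the lowest neutrophil sum (351034) and the lowest macrophage sum (110691), and the highest median deviation of the mitotic genes (0.43). The 8 macrophage markers summed to 110691 to 133689 in the ANXA5 knockout, against 75712 to 117495 in WT, with 8 of 8 above 0 and 6 at an unadjusted p under 0.05. The 5 endothelial markers summed to 2402 to 4521 in the ANXA5 knockout, against 704.5 to 2130.4 in WT, with 5 of 5 at an unadjusted p under 0.05 and a median log2 fold change of 1.37. Over all genes tested 6.48% were higher at that p, and in limma 0 genes of either list passed the adjusted threshold. In the authors' deposited table, where 1.76% of the genes with an adjusted p pass, Tie1, Pecam1 and Emcn pass (adjusted p = 0.00748, 0.0146 and 0.0261). Cdh5 and Kdr do not. The 5 red cell markers summed to 33504 to 60591 in the ANXA5 knockout, against 13309 to 50151 in WT. The 5 B and plasma cell markers summed to 12972 to 21704 in the ANXA5 knockout, against 9312 to 13115 in WT. Of these, Igkc passes in the authors' deposited table (adjusted p = 0.0208) and the others do not. For 9 stromal markers the range was 361163 to 507265 in the ANXA5 knockout, against 185179 to 476408 in WT, with 4 of 9 above 0. With the neutrophil marker sum as a covariate, a fit chosen after seeing the data, 1 member in place of 21 had an unadjusted p under 0.05 in the ANXA5 knockout, 41 of 45 in place of 44 were above 0, and the medians were 0.12 for the S phase and 0.10 for the mitotic genes. The median of that sum was 396070 in the ANXA5 knockout and 270513 in WT, so the fit cannot tell blood cell content from genotype. The part of blood cell content in the level of these genes was not tested.

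**Figure D4:**
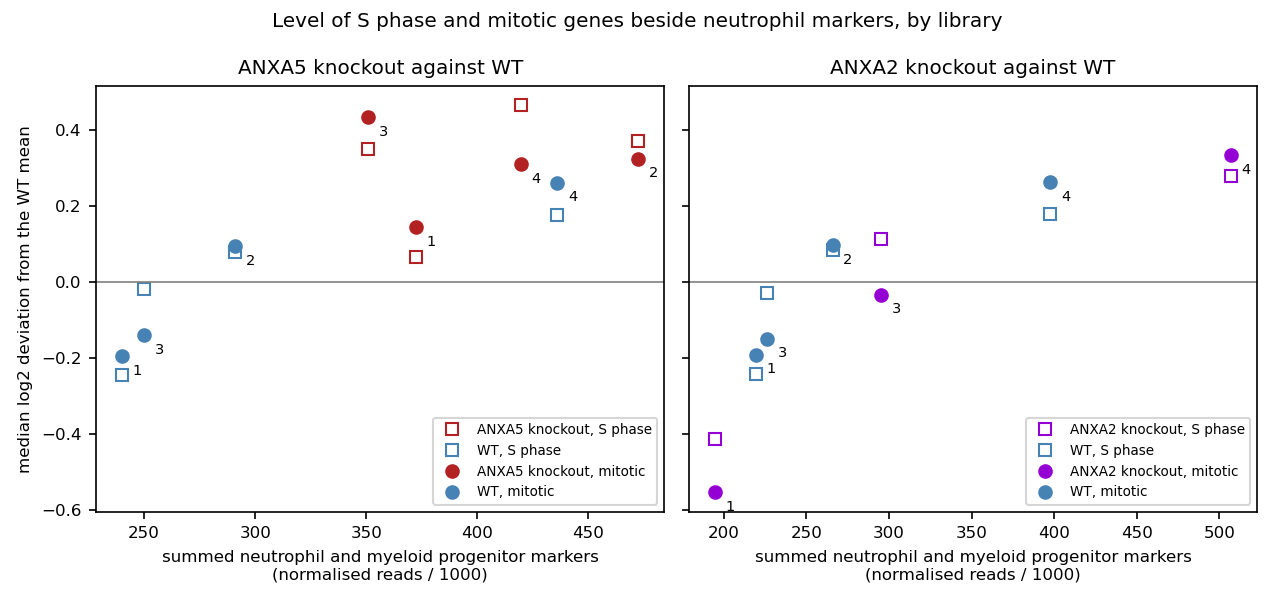
Median log2 deviation from the WT mean of the S phase genes (open squares) and mitotic genes (filled circles, numbered by library) against the summed neutrophil and myeloid progenitor markers (normalised reads divided by 1000), for ANXA5 knockout and WT libraries (left) and ANXA2 knockout and WT libraries (right). ANXA2 knockout libraries 1 and 4 stand at the 2 ends of their panel, and among WT libraries, library 1 is lowest and library 4 highest on both axes.

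In the ANXA2 table the other lists of markers ran as follows. The macrophage markers summed to 68160 to 141897 in the ANXA2 knockout, against 69228 to 107150.0 in WT, with 5 of 8 above 0. The endothelial markers summed to 1099 to 2038 in the ANXA2 knockout, against 644 to 1943 in WT, with 5 of 5 above 0. The red cell markers summed to 10818 to 23236 in the ANXA2 knockout, against 12169 to 45818 in WT, with 1 of 5 above 0. The B and plasma cell markers summed to 11392 to 16925 in the ANXA2 knockout, against 8431 to 11982 in WT, with 3 of 5 above 0. The stromal markers summed to 328785 to 537219 in the ANXA2 knockout, against 169320.0 to 431351 in WT, with 8 of 9 above 0. In limma 0 genes of these lists passed the adjusted threshold. In the authors' deposited table Jchain, of the B and plasma cell list, passes (adjusted p = 0.0459), where 0.593% of the genes with an adjusted p do.

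The members range from 36.3% GC in the transcript of Ccne2 to 58.3% in that of E2f1. Across the 45 genes the Spearman correlation of the log2 fold change with GC content was 0.53 in the ANXA2 knockout and 0.16 in the ANXA5 knockout, given as a description, since the genes share their libraries. With each library's trend on GC content removed, a setting chosen after seeing the data, the count above 0 was 42 of 45 in the ANXA5 knockout. In the ANXA2 knockout it was 16 in place of 19, and the S phase median became -0.0191. In either knockout 0 members were called.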

How the data were processed

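RNA-seq libraries of 11 mouse stromal cell samples were analysed from 2 deposited tables, 1 per knockout, each with the same 4 WT libraries. The signal in the tables the authors deposited is reads per gene divided by a DESeq2 size factor, and 100% of values gave whole reads within 0.001 when multiplied back. Trim Galore, STAR, HTSeq, DESeq2 and build GRCm39 are listed in the submitters' processing notes, with their versions not given in the sources used here. The log2 fold changes and adjusted p-values the authors deposited are printed only where named as theirs. ANXA2 knockout columns were matched to their group only.

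Groups came from the labels, and the members, gene lists and named-gene rule (all members, with library values for the 6 smallest p of each phase and 8 fixed genes, and the 3 smallest p of each further list) were chosen with earlier results of these data known. A gene that this rule names among the further replication genes is not reported here. Tests were limma-trend fits (limma 3.58.1) of log2 (value + 1). A gene was kept where the number of libraries at 10 or more reached the size of the smaller group. P-values were two-sided, with Benjamini-Hochberg adjustment over all genes tested. ANXA2 was set against ANXA5 with edgeR 4.0.16 on recovered reads of 18712 shared genes. The fits were tested on simulated data in R 4.3.3. GC content came from the longest GENCODE transcript and promoters from RefSeq, both on GRCm38. Alternatives were TMM scaling, edgeR, DESeq2 1.42.0, limma-voom, pseudocounts of 0.5 and 5, no filter, a minimum of 50, Xist or the neutrophil marker sum as a covariate, a GC correction, a replicate block and leaving out each library.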

Additional observations from a re-analysis of the deposited data

Results flagged for a closer look

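Of 90 sets of libraries examined, that is each member in the ANXA5 knockout and in WT libraries, 1 held a library that stood far from the others, where chance gives about 1 in 20. Aurkb was 1151 normalised reads in ANXA5 knockout library 1, below the other 3 libraries of that group, which lay between 1460.3 and 1492.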

How the results depend on the processing

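In the ANXA2 knockout, 0 members were called under every alternative run, and the direction of the medians was not stable. Members above 0 (19) numbered 30 with Xist as a covariate and 5 with the neutrophil marker covariate, and 3 to 38 when each library was left out in turn. The G1 median became 0.05 with the Xist covariate and ran from -0.045 to 0.0952 with a library left out. The S phase median became -0.0096 with limma-voom, -0.0191 with the GC correction and -0.0824 with the neutrophil covariate, and ran from -0.13 to 0.20. The mitotic median became 0.0016 with DESeq2 and 0.0033 with the Xist covariate, and ran from -0.28 to 0.17. In the ANXA5 knockout, DESeq2 called 1 member. Members higher at an unadjusted p under 0.05 (21) numbered 1 with the neutrophil covariate (41 in place of 44 above 0) and 10 to 31 with a library left out, and the neutrophil covariate gave medians of 0.12 (S phase) and 0.10 (mitotic). Between the knockouts, members lower at an unadjusted p under 0.05 (10) numbered 1 to 32 and the median ran from -0.49 to -0.13 with a library left out. In the 250 bases before the start, 5 S phase promoters held an E2F motif and 7 mitotic promoters a CHR element, since matches after the start are left out. The S phase promoters with a CHR element numbered 5 in both windows. The cause of the other changes was not tested. Signs of single members changed under at least 1 of 12 other alternatives for 26 of 45 in the ANXA2 knockout and 7 of 45 in the ANXA5 knockout, and with a library left out for 35 and 4 of 45. Of the genes named, Ccne2 (DESeq2, 0.0379) and Cdkn1b (Xist covariate, 0.0474) crossed the threshold. The GC correction, the neutrophil covariate, the block by column number and leaving out libraries between the knockouts were chosen after seeing the data.

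Same-numbered ANXA5 knockout and WT libraries deviated together with correlations of 0.05, -0.07, -0.25 and 0.07, and each knockout library correlated best with another number. The best correlations were 0.10 to 0.25, too low to decide whether the numbers pair the libraries. With the replicate block, 0 members were called and 24 had a higher value at an unadjusted p under 0.05. The numbers of the ANXA2 knockout columns are not those of its titles. Same-numbered columns correlated at 0.31, 0.08 and 0.32 for libraries 1, 3 and 4. Libraries 1 and 4 correlated best with the WT library of their own number, and library 3 with WT library 4 (0.13). This check does not decide whether the column numbers pair the libraries. A replicate block by column number called 0 members and put 26 above 0. The lowest value of a member was 181 normalised reads, and whether depth limits the calls was not tested.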
